A study of Drosophila melanogaster with 4 samples.

Results

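Lysozymes are enzymes that cut the peptidoglycan of bacterial cell walls, and 7 lysozyme genes of Drosophila melanogaster (LysB, LysC, LysD, LysE, LysP, LysS and LysX) were followed here in whole females after different matings. The genes were found by their symbols in the annotation of an Affymetrix Drosophila GeneChip. All 7 were on the array with 1 probe set each, among 10843 genes that could be named. They were chosen by name, with their differences across these same 4 value columns already known, so every value and difference below is a description and none is a test. With LysB, LysC, LysD and LysE the levels were lowest after mating with wild-type males, next lowest after DTA-E males, higher in virgin females and highest after spermless males. LysP was lower in the wild-type and DTA-E columns than in the other two, and LysS and LysX differed little.

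The first group mated with wild-type Canton S males, which pass both sperm and accessory gland proteins (Acps). The second mated with spermless males, named sons of tudor because their mothers were bw sp tud1, whose accessory glands are intact. The third mated with DTA-E males of a transgenic stock on a Canton S background, which have no sperm and make no Acps in the main cells, 96% of the secretory cells of that gland; the promoter of the transgene is not named in the labels. The fourth was of virgin females. All females came from an inbred Canton S stock and were 3 to 4 days old, and mated females were frozen 1 to 3 h after mating. Each group was drawn from a pool as 50 flies, split for 2 RNA extractions and hybridized to 4 chips, but the value table has 1 column per group. There is therefore no replicate error, and no standard deviation, interval or p-value can be given for any group.

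In flies, lysozymes serve mainly in digestion. LysB, LysC, LysD and LysE are known as midgut lysozymes of larvae and adults that feed on bacteria-rich food, LysP as a lysozyme of the adult salivary gland, LysS as one of the gastric caeca of the larval gut and LysX as one made around metamorphosis. They differ in this from the antimicrobial peptides, which the fat body releases on infection. In the RefSeq annotation (Release 6) all 7 lie on chromosome arm 3L in the order LysX, LysB, LysC, LysD, LysE, LysP and LysS. LysB, LysC, LysD, LysE and LysP follow one another as neighbours, and LysS comes directly after LysP. RefSeq lists LysC as a pseudogene and the other 6 as protein coding. Its identifier on the array was not in the RefSeq table, and it was matched by its symbol.

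The probe sets of LysB, LysC, LysD and LysE carry the suffix _f_at, which Affymetrix used for probe sets made for a family of similar sequences. The probe sets of LysP, LysS and LysX end in _at. Signal from one of the 4 family members can thus enter the probe sets of the others, and the values of LysB to LysE cannot be read as 4 independent genes. The LysC value in particular may hold RNA of its neighbours, which was not tested.

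Values are on a log scale of unstated base, read here as log2, so that 1 unit stands for 2-fold (2.72-fold if the base was e). Levels are the deposited values after the columns were moved to the median of the virgin column, by at most 0.05. The filter kept 6201 genes whose highest column reached the median of all values (-0.18). It kept 6 of the 7 lysozyme genes and left out LysX. Among genes with several probe sets (294 of them), differences between 2 columns varied between probe sets with an SD of 0.08 to 0.09. That SD is the only measure of spread in the table and does not cover pools of flies or chips. Columns correlated at 0.993 to 0.996 across probe sets. The mean of 9 hybridization control probe sets was 1.5, 1.41, 1.29 and 1.37 in the wild-type, spermless, DTA-E and virgin columns. The actin control, whose 3' probe set exceeds its 5' one by more as RNA degrades, gave a gap of 1.97, 2.02, 2.26 and 1.95 in the same columns. The yolk protein and eggshell genes that mark the female fat body and ovary were all 6 above the filter in every column. Of the male markers, 0 of 10 measured accessory gland genes was above it in any column. Among 9 measured testis genes, 4 were above it in every column, that of virgin females included.

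LysB had a level of 3.85 after wild-type males, 4.66 after spermless males, 4.07 after DTA-E males and 4.44 in virgin females. LysC had a level of 2.03 after wild-type males, 3.06 after spermless males, 2.34 after DTA-E males and 2.95 in virgin females. The spermless and virgin columns were the high ones and the wild-type and DTA-E columns the low ones. LysD stood at 3.37, 4.28, 3.59 and 4.06 in the wild-type, spermless, DTA-E and virgin columns. LysE stood at 2.87, 3.72, 3.05 and 3.48 in the same columns. The order of the columns was the same in all 4 genes, from spermless through virgin and DTA-E to wild-type. Among all kept genes 320 had that order, which is 5.16%. The range over the 4 columns was 0.82 in LysB, 1.03 in LysC, 0.91 in LysD and 0.85 in LysE. A range at least as wide as that of LysB was seen in 68 of the kept genes (1.1%), and one at least as wide as that of LysC in 45 (0.726%).

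**Figure D1:**
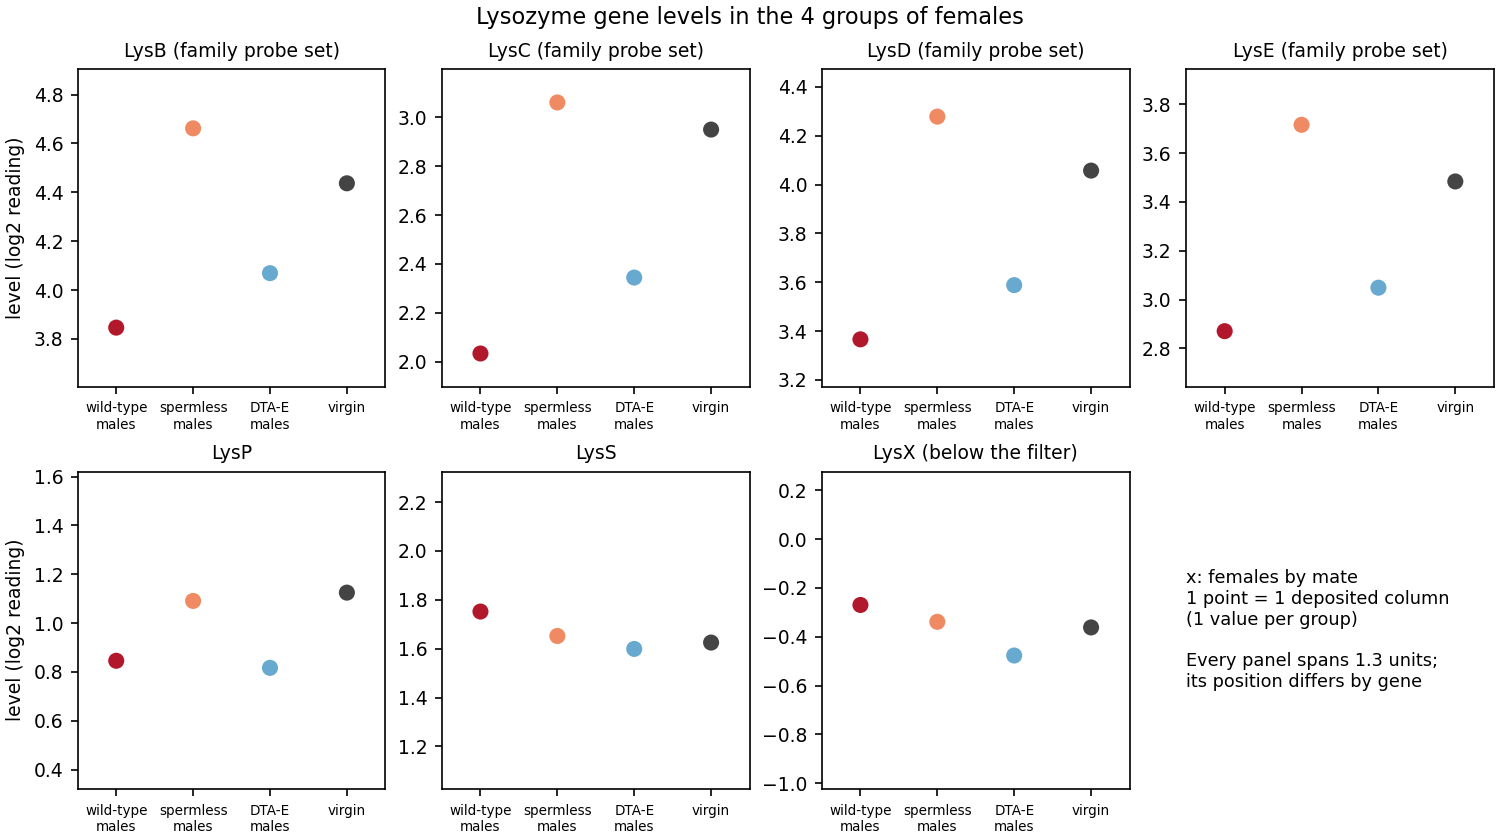
Level of each lysozyme gene (y axis, log2 reading) in females by mate (x axis), with 1 point for each deposited column, no error bars because there is 1 value per group, and a y axis that spans 1.3 units in every panel. LysB, LysC, LysD and LysE are lowest after wild-type males and highest after spermless males, while LysS spans only 0.15.

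LysP had a level of 0.85 after wild-type males, 1.09 after spermless males, 0.82 after DTA-E males and 1.13 in virgin females. Its wild-type and DTA-E columns were the low pair, as in LysB to LysE. They lay within 0.03 of each other, as did the spermless and virgin columns, so neither pair differed beyond the spread between probe sets. LysS had a level of 1.75 after wild-type males, 1.65 after spermless males, 1.60 after DTA-E males and 1.62 in virgin females. Its highest column was the wild-type one, and the other columns lay within the spread between probe sets of each other. LysX, below the filter, stood at -0.27, -0.34, -0.48 and -0.36 in the wild-type, spermless, DTA-E and virgin columns. A range as wide as that of LysP (0.31) was seen in 7.29% of kept genes, against 15.9% for the range of LysX (0.21) and 30.2% for that of LysS (0.15).

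Females mated with wild-type males had lower lysozyme levels than virgin females. LysC differed by -0.92, LysD by -0.69, LysE by -0.61 and LysB by -0.59, or 1.89-fold, 1.61-fold, 1.53-fold and 1.51-fold. LysP differed by -0.28, LysS by 0.13 and LysX by 0.09. Of the 6 kept genes 4 were lower past 1.5-fold (0.58 on the log2 scale), against 1.0% of all kept genes, and 0 were lower past 2-fold, against 0.419%. The median over the 6 was -0.60, beside 0.01 over all kept genes. LysB and LysE lay close to the threshold: after quantile normalization of the columns LysC (-0.84) was the 1 gene past it, and LysB, LysD and LysE were at -0.51, -0.56 and -0.53. In whole females, fewer cells of a type and less RNA per cell cannot be told apart.

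Females mated with DTA-E males, which received neither sperm nor main-cell Acps, had lower levels than virgin females by smaller amounts. LysC differed by -0.61, LysD by -0.47, LysE by -0.44, LysB by -0.37 and LysP by -0.31. LysX differed by -0.12 and LysS by -0.03. LysC was past 1.5-fold lower, as were 0.387% of all kept genes, and the median over the 6 kept genes was -0.40.

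After spermless males the 4 family genes were slightly higher than in virgin females. LysE differed by 0.23, LysB by 0.23, LysD by 0.22 and LysC by 0.11, while LysP (-0.03), LysS (0.03) and LysX (0.02) were near 0. None of the 6 kept genes was past 1.5-fold higher, against 0.5% of all kept genes. The LysC difference was 0.06 after quantile normalization, within the spread between probe sets.

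Spermless against DTA-E males, a comparison of mates that differ in main-cell Acps but both lack sperm, gave higher lysozyme levels after spermless males. These mates also differ in stock, and stock and Acps cannot be told apart here. LysC differed by 0.72, LysD by 0.69, LysE by 0.67 and LysB by 0.59, from 1.64-fold down to 1.51-fold. LysP was higher by 0.28, LysX by 0.14 and LysS by 0.05. The 4 family genes were past 1.5-fold, against 0.516% of all kept genes higher past it, and the median over the 6 kept genes was 0.63, beside 0.00 over all kept genes. After quantile normalization LysC (0.68) and LysD (0.59) were past 1.5-fold, and LysE and LysB were at 0.55 and 0.49.

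Wild-type against spermless males, which differ in sperm and also in stock, gave the widest differences of LysB to LysE among the 6 comparisons. Sperm and stock cannot be told apart in it. LysC was lower by -1.03 after wild-type males, which is 2.04-fold, LysD by -0.91, LysE by -0.85 and LysB by -0.82. LysP differed by -0.25, LysS by 0.10 and LysX by 0.07. The 4 family genes were lower past 1.5-fold, against 1.1% of all kept genes, and LysC was lower past 2-fold, against 0.355%. After quantile normalization LysC was at -0.90.

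Wild-type against DTA-E males, the mates that pass sperm and Acps against those without sperm or main-cell Acps, gave smaller differences. LysC differed by -0.31, LysB by -0.22, LysD by -0.22 and LysE by -0.18, whereas LysX (0.21), LysS (0.15) and LysP (0.03) were higher after wild-type males. None was past 1.5-fold lower, against 0.387% of all kept genes.

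**Figure D2:**
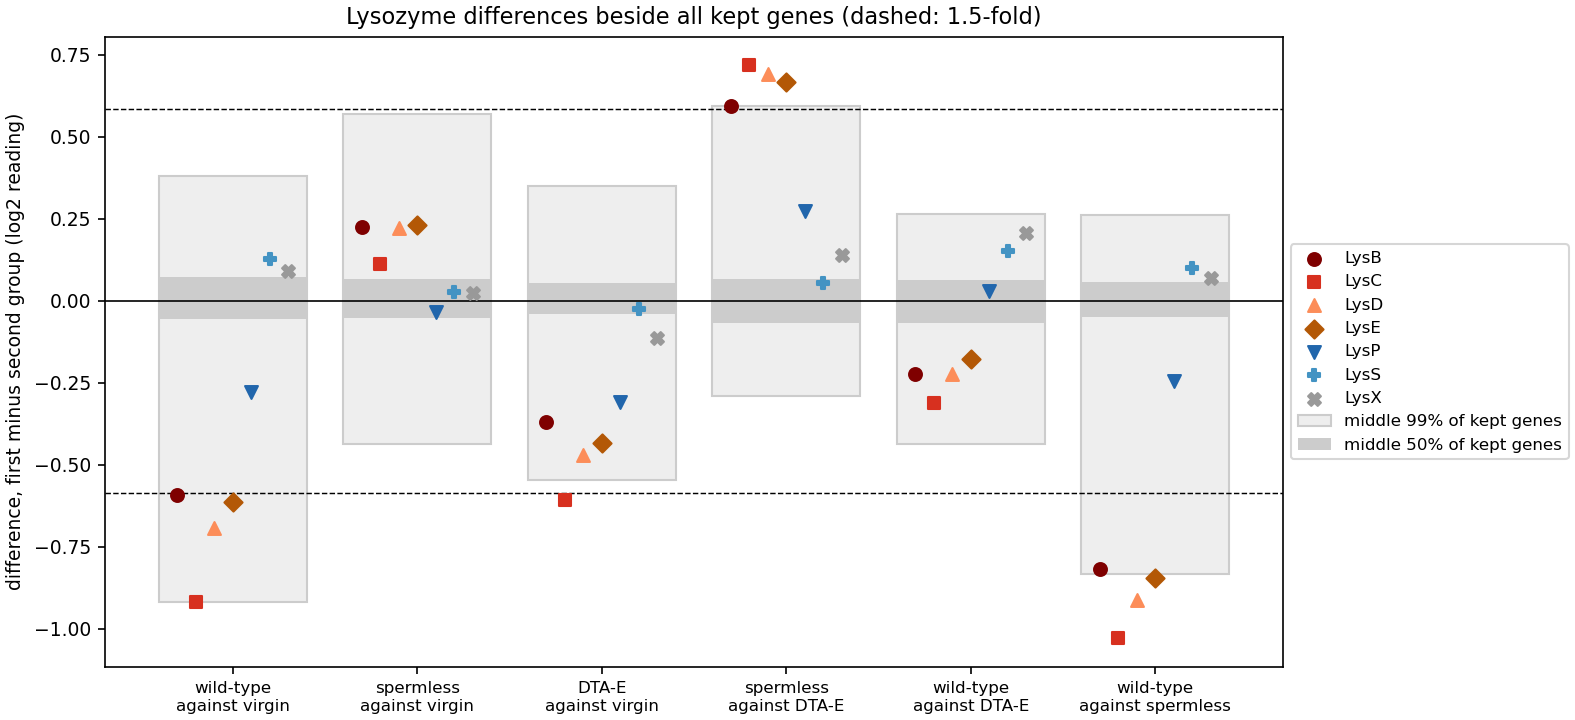
Difference between the first and the second group (y axis, log2 reading) of each lysozyme gene in the 6 comparisons (x axis), drawn over boxes that hold the middle 99% (pale) and the middle 50% (dark) of the 6201 kept genes; dashed lines mark 1.5-fold. LysB, LysC, LysD and LysE lie past the lower line in wild-type against virgin and in wild-type against spermless, and past the upper line in spermless against DTA-E.

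These comparisons reuse the same columns and are not independent of each other. Wild-type against virgin and spermless against DTA-E share no column. Lower past 1.5-fold in wild-type against virgin together with higher past 1.5-fold in spermless against DTA-E described 10 kept genes, or 0.161%, and 4 of the 10 were LysB, LysC, LysD and LysE. With family probe sets these 4 cannot be read as independent genes. LysB lay close to the threshold, and with the columns as deposited it was at 0.54 in spermless against DTA-E. After quantile normalization LysC was the 1 lysozyme gene past 1.5-fold in both, at -0.84 and 0.68. The other 6, which were picked out after their values were seen, were CG13482, the flight muscle actin gene Act88F, the flight muscle troponin C gene TpnC4, the thick filament gene fln, the mitochondrial phosphate carrier gene Mpcp1 and ND-B8, of mitochondrial complex I. Act88F had a level of 0.10 after wild-type males, 3.06 after spermless males, 1.13 after DTA-E males and 1.76 in virgin females.

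Muscle genes had the same order of columns as the family lysozymes. All 6 measured muscle markers ran from spermless through virgin and DTA-E to wild-type, against 5.16% of all kept genes. The mean level of these markers was 0.92 after wild-type males, 2.75 after spermless males, 1.49 after DTA-E males and 1.83 in virgin females. The part of this muscle difference in the lysozyme values was not tested. Midgut markers, 4 of the 6 measured being digestive enzyme genes, had a mean level of 1.52, 2.25, 2.10 and 2.51 in the wild-type, spermless, DTA-E and virgin columns. Their highest column was thus the virgin one. The midgut gene mex1 had -0.32, -0.17, -0.25 and -0.11 in those columns, and GATAe, a midgut transcription factor gene, was below the filter.

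**Figure D3:**
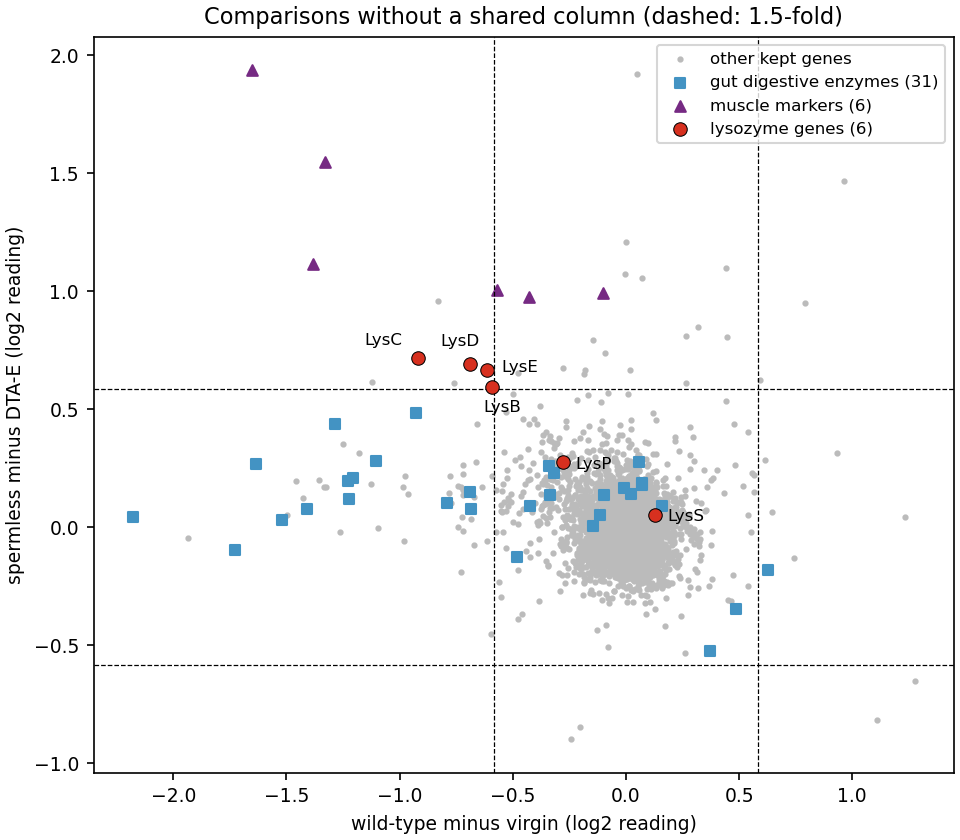
Each kept gene by its difference in wild-type minus virgin (x axis) and in spermless minus DTA-E (y axis), both on the log2 reading, with 6 lysozyme genes in red, 31 digestive enzyme genes in blue and 6 muscle markers in purple; dashed lines mark 1.5-fold. LysB, LysC, LysD and LysE lie in the upper left corner with some of the muscle markers, and none of the digestive enzyme genes is above 0.49 on the y axis.

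Most digestive enzyme genes of the gut were also lower after wild-type males than in virgin females, 23 against 8 that were higher. Over all kept genes 2877 were lower and 3324 higher. Between spermless and DTA-E males the digestive enzyme genes differed by less than LysB to LysE. Of 31 kept digestive enzyme genes 14 were lower and 1 higher past 1.5-fold in wild-type against virgin, against 1.0% lower and 0.177% higher over all kept genes, with a median of -0.43. In spermless against DTA-E none of the 31 was past 1.5-fold in either direction, against 0.516% higher and 0.0645% lower over all kept genes, and the median was 0.14, beside 0.63 for the 6 kept lysozyme genes. In spermless against virgin 5 were lower and 2 higher past 1.5-fold, against 0.29% lower and 0.5% higher over all kept genes. Mal-A1, a maltase gene, was at 1.26 after wild-type males, 2.28 after spermless males, 2.24 after DTA-E males and 3.44 in virgin females, so that all 3 mated columns were below the virgin one. Bace, an aspartic protease gene, tobi, an alpha-glucosidase gene, and Mal-A6, a maltase gene, likewise had their highest level in virgin females, and differed by -1.52, -1.73 and -1.64 in wild-type against virgin. Column orders matched that of the family lysozymes in 7 of the 31, against 5.16% of all kept genes. One of the 7 was epsilonTry, a trypsin gene, with 2.46, 3.45, 2.97 and 3.39 in the wild-type, spermless, DTA-E and virgin columns.

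Lysozyme-like genes elsewhere in the genome differed by less than 1.5-fold in all 6 comparisons. At most 1.1% of all kept genes were past it in 1 direction, so a list this short gives few calls or none. Of the other c-type genes, which share the fold of the 7 above, 5 were on the array and 3 were kept. CG16756 had 0.37 after wild-type males, 0.41 after spermless males, 0.48 after DTA-E males and 0.65 in virgin females. CG7798 and CG16799 differed by 0.08 and -0.03 in wild-type against virgin, and CG8492 and CG11159 were below the filter. Of the 5 i-type genes, a separate lysozyme class, CG6426 had 0.54 after wild-type males, 0.89 after spermless males, 0.75 after DTA-E males and 0.83 in virgin females. Its columns had the same order as those of LysB to LysE. CG6421 and CG14823 differed by -0.14 and -0.09 in wild-type against virgin, and CG6429 and CG6435 were below the filter. Median differences in that comparison were -0.03 for the 3 kept c-type genes and -0.14 for the 3 kept i-type genes.

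Genes of other proteins that act on or sense peptidoglycan had other column orders in the cases given here. So did most genes, since only 5.16% of all kept genes had the order of LysB to LysE. Among amidases, which cleave peptidoglycan into fragments that no longer trigger immunity, PGRP-SB1 had 1.26 after wild-type males, 0.90 after spermless males, 0.36 after DTA-E males and 0.82 in virgin females. Its wild-type column was the highest, where LysB to LysE had their lowest. Its spermless, virgin and DTA-E columns ran from high to low as in LysB to LysE. PGRP-SC2 had its lowest column after spermless males (0.64, against 0.97 in virgin females), and PGRP-LB and PGRP-SB2 differed by -0.01 and 0.15 in wild-type against virgin. Of 6 kept genes for peptidoglycan receptors and the Imd pathway, the immune route that peptidoglycan switches on, none was past 1.5-fold in any comparison. At most 1.1% of all kept genes were past it in 1 direction, so 6 genes give few calls or none. The widest of the 6 was Rel, the transcription factor gene of the Imd pathway. It differed by -0.33 in wild-type against spermless and by 0.30 in spermless against virgin. PGRP-LE, a receptor gene, and Tab2 and key, genes of the kinase steps, differed by -0.07, -0.10 and 0.04 in wild-type against virgin.

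Among 5 kept antimicrobial peptide genes, Mtk and DptB were higher past 1.5-fold in wild-type against virgin, against 0.177% of all kept genes. Both were also higher past it in spermless against DTA-E, by 1.47 and 0.95, against 0.516%. Mtk, encoding metchnikowin, had 2.75 after wild-type males, 1.84 after spermless males, 0.37 after DTA-E males and 1.79 in virgin females. DptB, a diptericin gene, had 1.82, 1.31, 0.36 and 1.03 in the same columns. Both were lowest after DTA-E males but highest after wild-type males, where LysB to LysE were lowest. LysX was also lowest after DTA-E males. LysP and LysS were too, but within the spread between probe sets of their next column. Def and Drsl5 differed by 0.30 and -0.25 in wild-type against virgin. Drsl5 had 0.55, 0.86, 0.72 and 0.80 in the wild-type, spermless, DTA-E and virgin columns, the same order as LysB to LysE. Over the 5 kept peptide genes the median was 0.30 in wild-type against virgin and 0.17 in spermless against DTA-E.

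**Figure D4:**
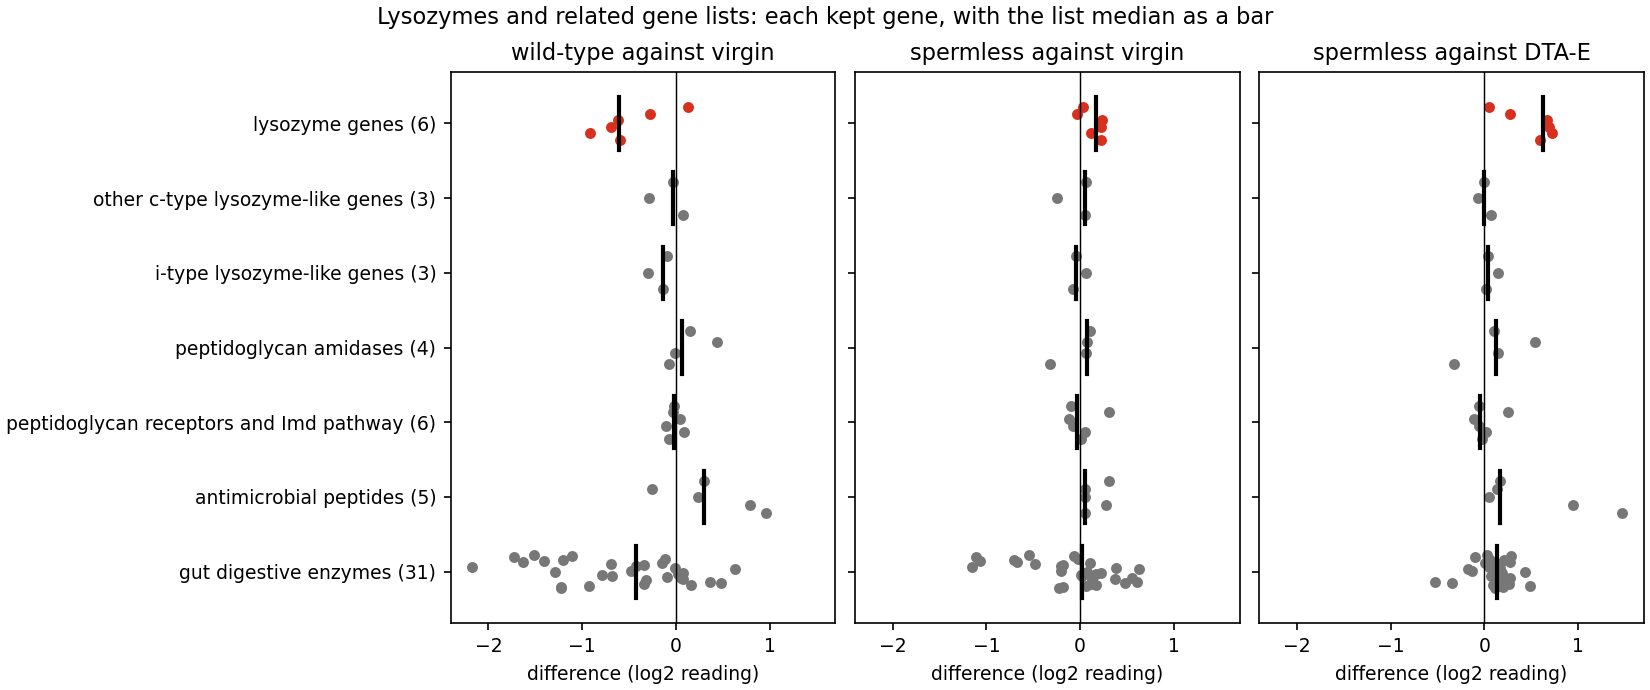
Difference of each kept gene (points, log2 reading on the x axis) and list median (black bars) for the lysozymes and 6 related lists (rows, number of kept genes in brackets) in 3 comparisons (panels). The lysozyme median is -0.60 in wild-type against virgin, where that of digestive enzymes is -0.43, and 0.63 in spermless against DTA-E, where that of digestive enzymes is 0.14.

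Among the family probe sets those of LysB, LysD and LysE varied little, and that of LysC stood further off. The root mean square difference between 2 profiles over the 4 columns, each gene set to its own mean, was 0.03 for LysB with LysE and for LysD with LysE, and 0.05 for LysB with LysD. LysC stood 0.08 to 0.12 from those 3. In wild-type against virgin the SD over the 4 family probe sets was 0.15, beside 0.09 between probe sets of one gene, and LysC was the lowest. In spermless against DTA-E it was 0.05, beside 0.09. LysP lay 0.20 to 0.30 from the family members, LysS 0.35 to 0.46 and LysX 0.33 to 0.44, while LysS and LysX lay 0.04 from each other.

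Family probe sets of other genes were set beside those of LysB to LysE. The table has 53 probe sets with that suffix, and 24 with 1 gene symbol other than a lysozyme passed the filter. Their median difference was 0.16 in wild-type against virgin and 0.06 in spermless against DTA-E. For wild-type against spermless it was 0.07. Past 1.5-fold, 0 of the 24 were lower in wild-type against virgin (1.0% of all kept genes), 1 was higher in spermless against DTA-E (0.516%) and 2 were lower after wild-type than after spermless males (1.1%), 1 of these past 2-fold. At such shares 24 probe sets give few calls or none, and signal shared within the lysozyme family was not tested by them.

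By the same measure over 4 columns, the kept genes most like the mean profile of the 6 kept lysozyme genes were Tret1-1 (0.02), which encodes a trehalose transporter, Gapdh1 (0.06), a glycolytic enzyme gene, Idh3g (0.06), Cyt-c1 (0.07), CG17571 (0.07) and ATPsynO (0.08). Tret1-1 had 1.19 after wild-type males, 1.80 after spermless males, 1.31 after DTA-E males and 1.72 in virgin females. Like LysB to LysE it was high in the spermless and virgin columns. The genes most like LysC, the member with the widest range, were CG13482 (0.07), epsilonTry (0.09), Ald1 (0.14), an aldolase gene, Tret1-1 (0.17), CG14125 (0.17) and Amy-d (0.18), an amylase gene. CG13482 had 0.06, 0.89, 0.28 and 0.82 in the wild-type, spermless, DTA-E and virgin columns. With 4 columns such likeness is a description, and the points share their chips across all genes.

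Other genes beside or between the lysozyme genes differed by less than LysB to LysE, except in spermless against virgin. In wild-type against virgin some of these other genes differed by more than LysP, LysS and LysX. Of 10 such genes taken from the RefSeq order, a choice made after seeing the data, 6 were on the array and 2 passed the filter. None of the 6 was past 1.5-fold in any comparison. Since at most 1.1% of all kept genes were past it in 1 direction, so short a list gives few calls or none. CG9119, next to LysB, had 0.59 after wild-type males, 0.74 after spermless males, 0.73 after DTA-E males and 1.06 in virgin females. All 3 mated columns were lower there, the spermless one included. CG13912, near LysX, had 0.71, 0.67, 0.60 and 0.35 in the same columns, with the virgin column lowest. In spermless against virgin CG9119 differed by -0.32 and CG13912 by 0.32, beside 0.11 to 0.23 for LysB to LysE.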

How the data were processed

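Total RNA of whole females was hybridized to Affymetrix Drosophila GeneChips, with 4 chips per treatment, per the labels. The authors deposited 1 column of values per treatment on a log scale, read as log2; how chips were combined, the background correction and the log base are not given in the sources used here. Each column as deposited had a mean near 0.

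Of 14009 probe sets, 44 controls, 326 with several gene symbols and 1196 with none were left out. Symbols were updated by Entrez identifier (12393 probe sets found, 50 not). Probe sets whose highest column reached the median of all values (-0.18) were kept, 6534 in all. Columns were aligned on their medians over these, and several probe sets of 1 gene became their mean. Groups came from the labels. Differences of 2 columns were taken for 6 comparisons, with no test, and counts use 1.5-fold. The members and all gene lists were chosen with earlier results of these data known. Named genes are the 7 lysozymes, all lysozyme-like and amidase genes, the 4 kept genes of each other list with the largest difference, markers, and the 6 nearest genes by likeness. Genes past the threshold in both contrasts, and neighbours, were chosen after their values were seen. The calculation was tested on simulated data. Alternatives were unaligned columns, quantile normalization, a filter at the 75th percentile or none, the brightest probe set, a lowess trend removed (fraction 0.3, 3 iterations) and other fold thresholds. Python 3.11.15, numpy 2.4.6, pandas 2.3.3, statsmodels 0.14.6 and matplotlib 3.10.9 were used.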

Additional observations from a re-analysis of the deposited data

How the results depend on the processing

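The direction of the mean difference of LysB, LysC, LysD and LysE was kept in all 6 comparisons under the columns as deposited, quantile normalization, no filter, the stricter filter, the brightest probe set and lowess. Against virgin females, that mean ranged from -0.74 to -0.61 after wild-type males, 0.12 to 0.22 after spermless males and -0.48 to -0.46 after DTA-E males. It ranged from 0.58 to 0.70 for spermless against DTA-E, -0.28 to -0.15 for wild-type against DTA-E and -0.91 to -0.72 for wild-type against spermless. The count past 1.5-fold was 3 in spermless against DTA-E with the columns as deposited, no filter or lowess. It was 3 in wild-type against virgin with the stricter filter or lowess. Quantile normalization left 1 lysozyme gene past 1.5-fold in wild-type against virgin and 2 in spermless against DTA-E, in place of 4 each. It moved the median over the kept genes to 0.083 for spermless against virgin, 0.52 for spermless against DTA-E, -0.11 for wild-type against DTA-E and -0.64 for wild-type against spermless; the cause was not tested. Without the filter LysX entered and the alignment changed, and the median was 0.061 in spermless against virgin and 0.53 in spermless against DTA-E. At 2-fold the count was 1 for wild-type against spermless and 0 for spermless against DTA-E, wild-type against virgin and DTA-E against virgin. At a lower threshold of 0.32 on the log2 scale, 4 genes passed in DTA-E against virgin. With LysB to LysE counted as 1 measurement, chosen after seeing the data, the median of the 3 values left was that of LysP or LysS by construction. Against virgin females it was -0.28 after wild-type, 0.028 after spermless and -0.31 after DTA-E males. It was 0.28 for spermless against DTA-E and -0.25 for wild-type against spermless. It changed sign, to 0.03, in wild-type against DTA-E. No paired analysis was possible because each group has 1 column. An offset on linear values was not run, since values were already on a log scale. Precision is limited by the number of arrays.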
